A study of Mus musculus with 23 samples.

Results

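The transcripts described here are 8 peptide hormone genes of gut enteroendocrine cells (Cck, Gip, Gcg, Sct, Sst, Nts, Ghrl and Pyy) and the granin genes Chga and Chgb, which mark these cells. They were taken by symbol from a table of 55487 genes, and 10 of 10 were found and passed the filter on low counts together with 17226 other genes. RNA came from whole mouse jejunum freed of fat and Peyer's patches. The 23 libraries comprised 12 from wild-type Cpa3+/+ mice and 11 from Cpa3Cre/+ mice, which carry a Cre insertion at the mast cell carboxypeptidase gene and are labelled as lacking mast cells. Within each genotype mice were naive, immunized with 25 µg ovalbumin and 2 mg alum intraperitoneally on days 0 and 14, or immunized in the same way and then given access to egg white. Access was a free choice between plain water and water holding 20% egg white and 8% sugar, and it lasted 1, 3 or 5 days from day 20. Of the Cpa3+/+ libraries 3 were naive, 2 immunized and 3, 2 and 2 from access of 1, 3 and 5 days. Of the Cpa3Cre/+ libraries 2 were naive, 2 immunized and 2, 2 and 3 from access. The 18 female and 5 male libraries were spread unevenly, so sex was a term of every fit. The ages of the mice, the amounts drunk and any plain sugar control were not among the labels used, so egg white, sugar and days after immunization cannot be told apart.

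Enteroendocrine cells are scattered single cells of the gut epithelium that sense the lumen and secrete hormones from dense granules. Fat and amino acids release cholecystokinin, which contracts the gallbladder, and sugar and fat release GIP, an incretin. Proglucagon gives GLP-1 and GLP-2 in the gut, secretin calls forth bicarbonate from the pancreas, somatostatin inhibits other endocrine cells, and neurotensin and peptide YY are most abundant towards the distal bowel. In a bulk tissue, fewer cells of a type and less RNA per cell cannot be told apart.

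The genes lie apart on the mouse genome (GRCm38). Cck lies at chr9:121489824-121495694, Gip at chr11:96024545-96030831, Gcg at chr2:62474530-62483650 and Sct at chr7:141278330-141279133. Sst lies at chr16:23889573-23890958, Nts at chr10:102481756-102490486 and Ghrl at chr6:113716119-113719880. Pyy lies at chr11:102106676-102107832, Chga at chr12:102554969-102565028 and Chgb at chr2:132781278-132795079. Ghrl shares 169 and 3 exonic bases with 2 genes of the other strand (Gm44033 and Gm26982), whose reads could be split from it only by strand. The other 9 genes share no exonic bases with another annotated gene.

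All 10 genes matched a RefSeq promoter entry (GRCm38.p6), and the 250 bases before their transcription starts were searched on both strands for 3 motifs. The first was the cAMP response element TGACGTCA, present in 1.56% of 32536 windows of that length. The second was the NeuroD-type E-box CAGATG, in 14.4%, and the third was the TATA box TATAAA, in 12.3%. Sst and Chgb were the 2 members with the cAMP response element, 48 and 72 bases before the RefSeq start. That start lies 114 (Sst) and 364 (Chgb) bases inside the gene as GENCODE annotates it, so both elements fall in an exon of the GENCODE gene, in its untranslated part. The element is shown in capitals in 30 bases of each, chr16:23890874-23890903 on the minus strand and chr2:132781559-132781588 on the plus strand, written 5′ to 3′ along the gene.
Sst: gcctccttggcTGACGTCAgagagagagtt
Chgb: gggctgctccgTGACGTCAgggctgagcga
The E-box was found in Cck, Gcg and Sct, at 30 bases before the start in Cck, at 139 and 83 in Gcg and at 242 in Sct. The TATA box was found in Sct 28 bases before the start and in Gcg 24 bases before it, and Gcg held a further copy on the other strand at 72. The whole windows are given for Sct, whose level differed most on day 5, and for Gcg, which varied apart from most other hormones, with the E-box and TATA box letters in capitals. They lie at chr7:141279134-141279383 and chr2:62483654-62483903, both on the minus strand.
Sct: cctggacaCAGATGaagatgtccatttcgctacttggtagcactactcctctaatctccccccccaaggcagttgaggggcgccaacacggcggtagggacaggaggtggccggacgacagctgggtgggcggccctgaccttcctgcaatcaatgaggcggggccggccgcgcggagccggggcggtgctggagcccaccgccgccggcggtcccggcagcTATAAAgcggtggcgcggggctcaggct
Gcg: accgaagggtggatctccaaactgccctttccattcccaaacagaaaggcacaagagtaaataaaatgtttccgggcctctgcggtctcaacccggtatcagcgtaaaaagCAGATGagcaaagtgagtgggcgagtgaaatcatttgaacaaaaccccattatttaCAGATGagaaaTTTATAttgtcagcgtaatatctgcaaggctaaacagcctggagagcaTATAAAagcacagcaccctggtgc
These 2 windows differ in base composition as the transcripts do. The Sct window holds 68% G and C and the Gcg window 44.8%, beside a median of 52.4% over all windows. The exons of Sct hold 59.5% G and C, more than 95.2% of the genes tested, and those of Gcg 44.8%, more than 23.9% of them. Here and below, the G and C share of a gene or its exons is that of its longest GENCODE transcript.

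Libraries held 5476308 to 19342046 counts, with a median of 13809248, and the 10 transcripts together took 0.0507% to 0.106% of them. Defining markers of enteroendocrine cells were present in all 23 libraries, with Pcsk1, the hormone convertase, at 8.75 to 22.6 CPM (counts-per-million) and Neurod1, a factor of their precursors, at 1.89 to 5.03 CPM. Of 15 pancreas markers, Ins1, Ins2, Amy2a5 and Try4 had 0 counts in all 23 libraries. The 15 together summed to 44.3 to 123 CPM, and 3 of them passed the filter on low counts. The summed level of 11 stomach markers was 2.33 to 8.6 CPM. Cpa3 itself ran from 0.827 to 22.1 CPM in Cpa3+/+ and from 0.101 to 1.51 CPM in Cpa3Cre/+ libraries. The value of 1.07 CPM in the library labelled Cpa3Cre/+ naive replicate 1 lay between those of naive Cpa3+/+ libraries (0.827 to 1.84 CPM). It also stood farthest out on the first principal component. Its summed smooth muscle markers were the highest of all libraries at 6197 CPM (range 655 to 6197) and its summed epithelial markers the lowest at 5469 CPM (range 5469 to 17220). The genotype average, the naive genotype comparison and the comparison of immunized with naive mice use this library and are also given without it.

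Gip was by far the most abundant hormone transcript per length. In CPM per kilobase of exon its median was 621 over the 23 libraries, with a lowest value of 333 and a highest of 1346, and it exceeded Sst, the next, in 23 of 23 libraries. Sst had a median of 44.2 CPM per kilobase, Chgb 34.7, Cck 28.2, Gcg 26.8 and Sct 24.1. Ghrl followed with 16.4, Nts with 16.1, Chga with 11.3 and Pyy with 2.2. The order of neighbours below Gip was often unclear. Sst exceeded Chgb in 16 of 23 libraries, Cck exceeded Gcg in 13, Gcg exceeded Sct in 14, Ghrl exceeded Nts in 12 and Nts exceeded Chga in 14. Chgb exceeded Cck in 20 and Chga exceeded Pyy in 23 of 23. Pyy had only 7 to 50 counts per library, and its values carry the counting error of such numbers.

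**Figure D1:**
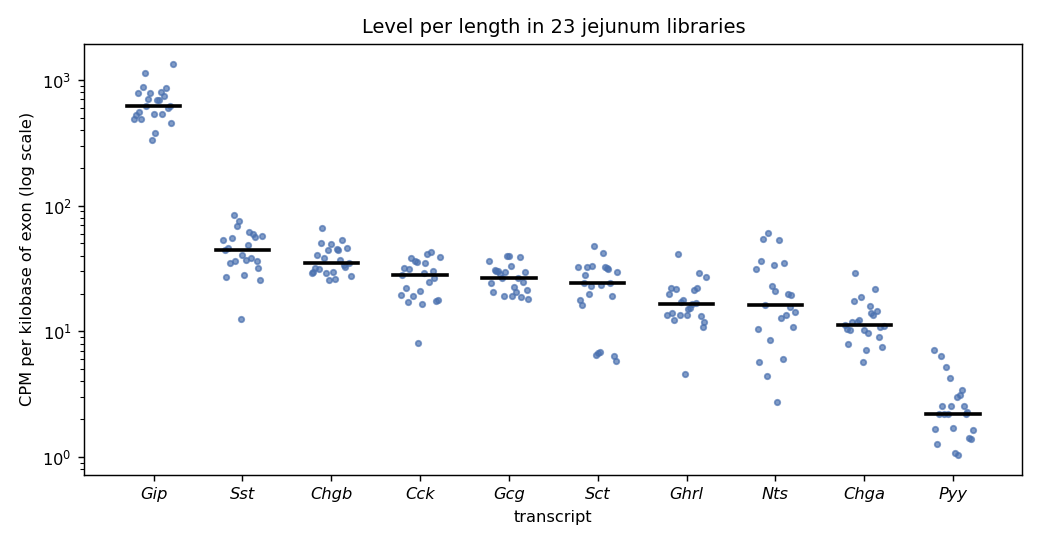
Level of each transcript in CPM per kilobase of exon (vertical axis, logarithmic), with 1 point per library and a bar at the median of 23 libraries. Gip lies above every other transcript in all libraries, and Pyy lies lowest with a median of 2.2.

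The transcripts differed in how much they varied between libraries. Nts was the most variable, with a coefficient of variation of 75%, and ran from 3.41 to 75.8 CPM, a 22.2-fold range. Pyy had a coefficient of variation of 59.6% and Sct of 49.9%. Gcg, the steadiest, had 25.3% and ran from 27.2 to 59 CPM.
Most of the spread of Nts lay within groups. Its Cpa3+/+ naive libraries had 39.2, 13.1 and 7.18 CPM, and its Cpa3+/+ day 1 libraries 20.1, 5.5 and 75.8 CPM. In Cpa3Cre/+ naive mice it was 3.41 CPM in the library labelled replicate 1 and 66.3 CPM in replicate 2.

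**Figure D2:**
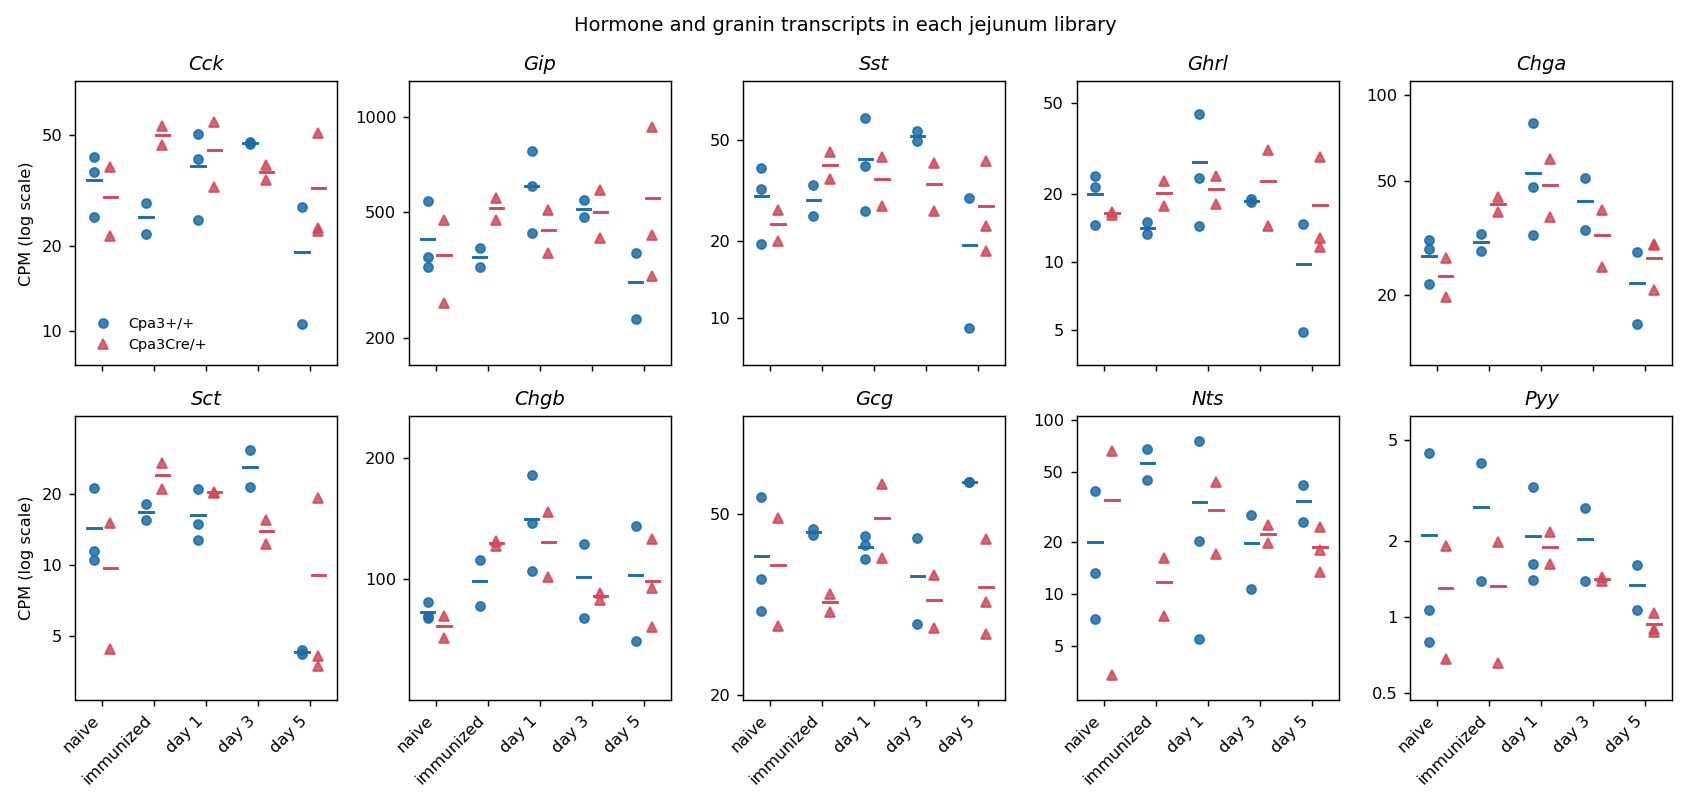
Level of each transcript in CPM (vertical axes, logarithmic) by state (horizontal axis) in Cpa3+/+ (circles) and Cpa3Cre/+ libraries (triangles), with 1 symbol per library and a bar at the group mean. The genotypes overlap in 35 of 50 pairs of transcript and state, Nts spreads widely within groups, and Sct is near 4 CPM in 4 of 5 day 5 libraries.

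The first comparison asked whether the genotype changed the hormone transcripts. Averaged over the 5 states, 0 of 10 passed edgeR's quasi-likelihood test at an adjusted p of 0.05 (Benjamini-Hochberg over 17236 genes), where 0.029% of all genes tested passed, all of them lower. Those 5 genes were the mast cell genes Cpa3, Mcpt1, Mcpt2, Mcpt9 and Fcer1a. At an unadjusted p of 0.05 none of the 10 transcripts was counted either, against 1.12% of all genes.
Cck averaged 38.6 CPM in Cpa3Cre/+ and 32.9 CPM in Cpa3+/+, a log2 fold change of 0.16 ± 0.21 (SE, adjusted p = 1). Levels are averages of the group means, and fold changes come from the fit with its sex term, so they need not equal the ratio of the levels. Gip averaged 474 and 436 CPM, a log2 fold change of 0.06 ± 0.21, and Sct 15.4 and 15.5 CPM, with 0.03 ± 0.30. Sst differed by 0.01 ± 0.24 and Ghrl, whose product ghrelin raises food intake, by 0.22 ± 0.25. Gcg was lower in value by 0.23 ± 0.15, at 37.3 CPM in Cpa3Cre/+ and 44.8 CPM in Cpa3+/+. The granins differed by -0.01 ± 0.19 (Chga) and -0.07 ± 0.15 (Chgb). Nts (-0.48 ± 0.57) and Pyy (-0.38 ± 0.37) had the largest differences and the widest errors. The median over the 10 was -0.00 and over all genes 0.03.
The 95% intervals show what the design could not tell apart. For Gip the interval ran from -0.38 to 0.49, for Cck from -0.28 to 0.60 and for Chgb from -0.40 to 0.25, while for Nts it ran from -1.67 to 0.72. Without the library labelled Cpa3Cre/+ naive replicate 1, Nts had a log2 fold change of 0.06, Pyy of -0.06, Sct of 0.30, Gip of 0.17 and Gcg of -0.39, and none passed. Gcg then had an unadjusted p of 0.0276 in edgeR's test (adjusted p = 1), where 1.79% of all genes were counted at 0.05 and 0.00562% passed.

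Within single states, too, 0 of 10 passed in naive, immunized, day 1, day 3 or day 5 mice, where 0% of all genes passed in each. In the immunized state, with 2 libraries against 2, the genotypes did not overlap for 9 of 10 transcripts and for 47.8% of all genes tested. They did not overlap for 3 of 10 on day 3 (37% of all genes), 3 of 10 on day 5 (29.8%), and 0 of 10 in naive (12.5%) and day 1 mice (22.9%). Without the library labelled Cpa3Cre/+ naive replicate 1, 0 of 10 passed in naive mice, where Nts had 2.35 ± 1.08 (adjusted p = 1) in place of 0.80 ± 1.15. In the immunized state, Nts had 45.2 and 67.9 CPM in the Cpa3+/+ libraries against 16 and 7.48 CPM in the Cpa3Cre/+ libraries. The groups did not overlap, and the log2 fold change was -2.30 ± 1.22 (adjusted p = 1). Cck, which had 28.7 and 22.2 CPM in Cpa3+/+ and 46 and 53.5 CPM in Cpa3Cre/+ immunized libraries, went the other way by 0.83 ± 0.46 (adjusted p = 1).
On day 5 Gcg had 58.9 and 59 CPM in Cpa3+/+ and 44.1, 32.1 and 27.2 CPM in Cpa3Cre/+ libraries. These values did not overlap. The log2 fold change was -0.77 ± 0.28, with an unadjusted p of 0.014 in edgeR's test and an adjusted p of 0.524.
Gip on day 5 had 229 and 370 CPM in Cpa3+/+ and 423, 314 and 925 CPM in Cpa3Cre/+ libraries. The log2 fold change was 0.89 ± 0.42 (adjusted p = 0.524), and it was 0.28 without Cpa3Cre/+ day 5 replicate 3, which held the highest Gip value of the series. That library also had the highest summed epithelial markers (17220 CPM) and the highest sum of 11 proximal small intestine markers (14900 CPM, range 2078 to 14900). Their part in the Gip value was not tested. At an unadjusted p of 0.05, 9.26% of all genes were counted in the day 5 genotype comparison.

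The second comparison asked whether the hormone transcripts changed during access to egg white and sugar. Averaged over days 1, 3 and 5 and both genotypes, 0 of 10 differed from the immunized libraries, where 0.0116% of all genes passed. Values of the 9 other than Sct lay between -0.27 and 0.16 on the log2 scale. Cck differed by -0.02 ± 0.25, Gip by 0.16 ± 0.26, Gcg by 0.11 ± 0.18, Sst by -0.04 ± 0.28 and Nts by 0.00 ± 0.57. Ghrl differed by 0.14 ± 0.31, Pyy by -0.27 ± 0.42, Chga by 0.01 ± 0.22 and Chgb by -0.01 ± 0.19. Sct differed most, with a mean of 15 CPM during access and 20.4 CPM in immunized mice, a log2 fold change of -0.62 ± 0.34 (adjusted p = 0.568).
Within Cpa3+/+ mice 0 of 10 passed, with 0% of all genes, and within Cpa3Cre/+ mice 0 of 10, with 0.0058%. The difference of the access response between the genotypes did not pass for any of the 10, with 0% of all genes. It was widest for Nts, at 2.00 ± 1.26 on the log2 scale (95% interval -0.66 to 4.66). Nts averaged 56.6 CPM in immunized and 29.2 CPM in access libraries of Cpa3+/+ mice, and 11.8 and 23.7 CPM in those of Cpa3Cre/+ mice.

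By day, 0 of 10 passed on day 1 and on day 3, where 0% of all genes passed on either day. On day 1, 9 of 10 values were above those of the immunized libraries with a median of 0.25, against 0.02 over all genes. Chga was the highest of them, with 47.9, 80.1 and 32.5 CPM in Cpa3+/+ day 1 and 37.4 and 59.6 CPM in Cpa3Cre/+ day 1 libraries. Its immunized libraries had 28.5, 32.8, 44 and 39 CPM, which overlap them, and the log2 fold change was 0.51 ± 0.27 (adjusted p = 1). On day 3 the 10 values ran from -0.30 (Nts) to 0.28 (Sst). The comparisons by day share the 4 immunized libraries, so they are not independent of each other.
On day 5, 0 of 10 passed, where 1.94% of all genes did (0.557% higher and 1.38% lower, or 96 and 238 genes, and 18 and 23 with the correction for base composition given for Sct), and the values of 9 of the 10 lay below the immunized ones. Their median was -0.41, against 0.02 over all genes. Cck had -0.45 ± 0.30, Sst -0.61 ± 0.34, Chga -0.54 ± 0.27, Pyy -0.84 ± 0.52 and Gcg alone was above, at 0.22 ± 0.22. Ghrl had -0.38 ± 0.37, Chgb -0.10 ± 0.23, Gip -0.01 ± 0.31 and Nts -0.02 ± 0.77. The exons of Chga, Pyy, Cck and Sst hold more G and C than 92.6%, 88.9%, 87.5% and 83.6% of the genes tested. Those of Chgb, Gip, Ghrl, Gcg and Nts hold more than 73.6%, 70.4%, 59.5%, 23.9% and 4.74% of them. The part of base composition in these values was not tested. The day 5 libraries differed widely, and 2 of them stood apart. Cpa3+/+ day 5 replicate 1 held the lowest Cck (10.5 CPM), Gip (229 CPM), Sst (9.1 CPM), Ghrl (4.91 CPM), Chga (15.9 CPM) and Chgb (70.4 CPM) of the 23 libraries. Cpa3Cre/+ day 5 replicate 3 held 50.8 CPM of Cck, 925 CPM of Gip, 41.1 CPM of Sst and 29 CPM of Ghrl, the highest of the day 5 libraries for these 4 genes.

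**Figure D3:**
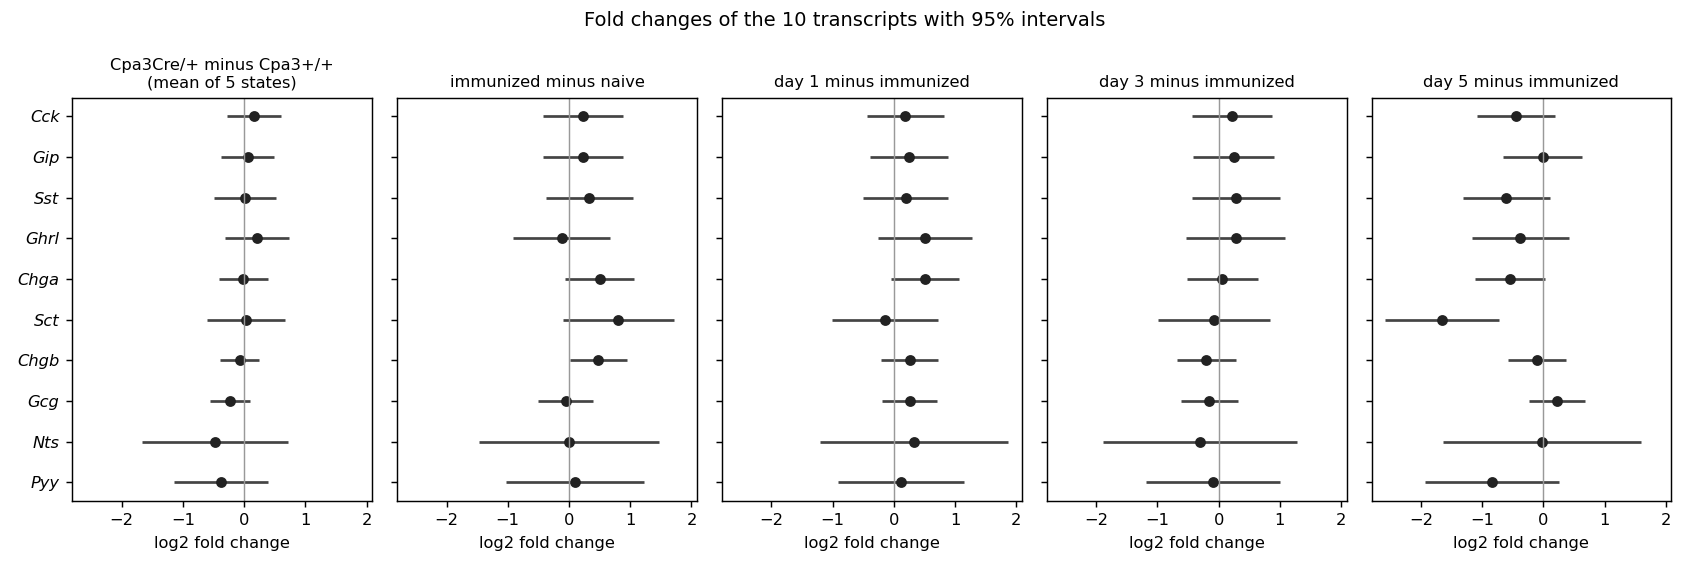
Log2 fold change (horizontal axes) with its 95% interval for each transcript in the genotype average, immunized against naive, and each access day against immunized. Every interval crosses 0 except those of Sct on day 5 and of Chgb in immunized against naive, and neither of these passed after adjustment over all genes.

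Secretin came nearest to passing. Sct had 4.19 and 4.34 CPM in the Cpa3+/+ day 5 libraries and 4.09, 3.73 and 19.3 CPM in the Cpa3Cre/+ day 5 libraries. The immunized libraries had 15.5 and 18.1 CPM in Cpa3+/+ and 27.1 and 21 CPM in Cpa3Cre/+ mice. So 4 of 5 day 5 libraries lay below all immunized ones, and Cpa3Cre/+ day 5 replicate 3 lay among them. The averages of the group means were 6.65 and 20.4 CPM, and the fitted log2 fold change was -1.66 ± 0.44 (95% interval -2.58 to -0.73), with an adjusted p of 0.0605 in edgeR's test.
The call depended on the fit. Without Cpa3Cre/+ day 5 replicate 3 the log2 fold change was -2.27 (adjusted p = 0.000707). Sct also passed without the library labelled Cpa3Cre/+ naive replicate 1 (adjusted p = 0.0268), which had 4.39 CPM, and without replicate 2 of that group (adjusted p = 0.025). DESeq2 called it (-1.65, adjusted p = 0.0078), as did edgeR without the sex term (-1.70, adjusted p = 0.0371) and without the filter on low counts (-1.67, adjusted p = 9.91e-09). It did not pass in females only (-1.62, adjusted p = 0.124), without the 2 libraries farthest out on the first principal component (-1.78, adjusted p = 0.0962), or with any of the other 20 libraries left out singly (adjusted p from 0.0517 to 0.185).
Over the other states Sct had 21.2, 11.5 and 10.5 CPM in Cpa3+/+ naive, 21, 12.8 and 14.9 CPM in Cpa3+/+ day 1 and 21.4 and 30.7 CPM in Cpa3+/+ day 3 libraries. In Cpa3Cre/+ naive mice it had 15.1 CPM in replicate 2 and 4.39 CPM in the library labelled replicate 1, which lay at the level of the 4 low day 5 libraries. In Cpa3Cre/+ mice it had 20.5 and 20.1 CPM on day 1 and 15.5 and 12.2 CPM on day 3. All of these day 1 and day 3 values lay above those of the 4 low day 5 libraries.

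Base composition moved with Sct. The 823 tested genes with at least its G and C share had a median log2 fold change of -0.69 on day 5 against 0.02 over all genes, and 12.5% of them were called lower against 1.38% of all genes. The same genes lay below their mean over libraries by a median of -0.68 and -0.31 in the Cpa3+/+ day 5 libraries and of -0.47, -0.67 and -0.00 in the Cpa3Cre/+ day 5 libraries, on the log2 scale. Among the day 5 libraries, the 4 with low Sct were thus the 4 with low levels of such genes, and Cpa3Cre/+ day 5 replicate 3 was low in neither. With a correction of each library for G and C content, chosen after these values were seen, the same 4 libraries had 6.52, 5.16, 5.42 and 5.77 CPM of Sct. The immunized libraries then had 15.8, 16.7, 23.2 and 18.7 CPM. The 4 values lay below all of these, replicate 3 lay among them at 19.2 CPM, and the log2 fold change was -1.19 (adjusted p = 0.198). Among the naive libraries, the one labelled Cpa3Cre/+ naive replicate 1 had 4.28 CPM of Sct after correction, and its GC-rich genes lay at -0.05. That library also had the lowest summed epithelial markers of all libraries (5469 CPM). In Cpa3+/+ naive replicate 3, which held 10.5 CPM of Sct, the GC-rich genes lay at -0.33. The parts of base composition and of the cells sampled in the Sct values were not tested.

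**Figure D4:**
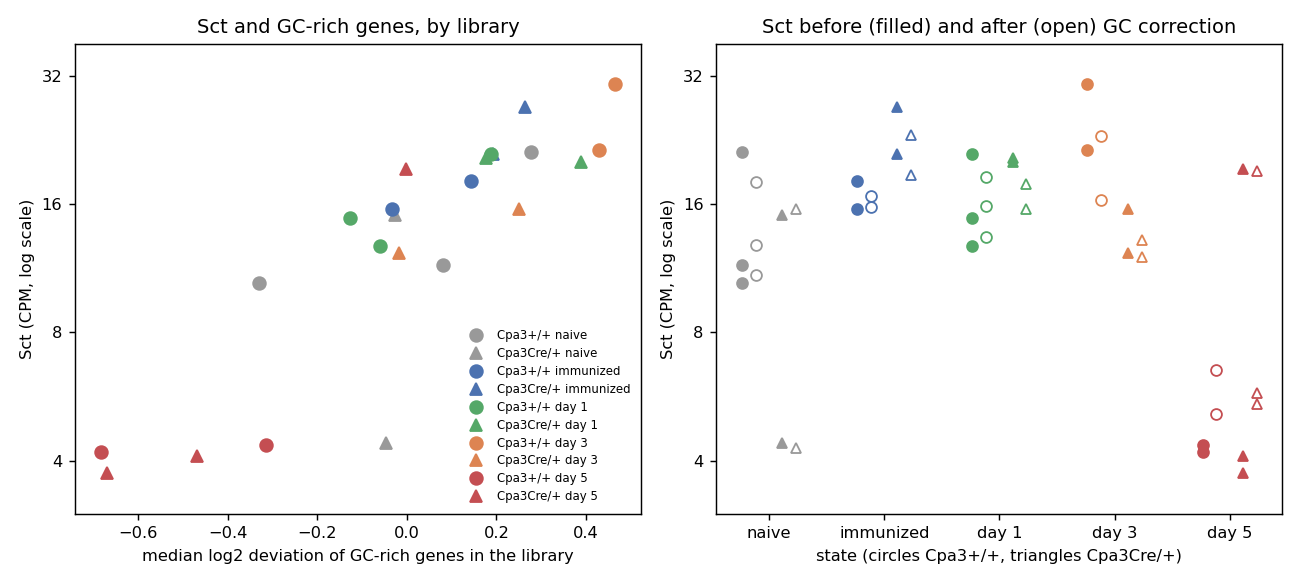
Left, Sct in CPM (logarithmic) against the median log2 deviation of the 823 GC-rich genes in the same library; right, Sct by state before (filled) and after (open) correction for GC content, 1 symbol per library. The 4 day 5 libraries near 4 CPM lie at the left, between -0.68 and -0.31, and remain below the immunized libraries after correction.

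Immunization by itself was compared with the naive state. Here 0 of 10 passed, where 0% of all genes did. Chgb had 80.4, 81.1 and 88.2 CPM in Cpa3+/+ naive and 81.2 and 71.9 CPM in Cpa3Cre/+ naive libraries, against 112, 86, 125 and 121 CPM in the immunized ones. Of the 4 immunized values 3 lay above all naive ones, and the log2 fold change was 0.48 ± 0.22 (unadjusted p = 0.0446 and adjusted p = 0.438 in edgeR's test). Chgb was the 1 transcript of 10 counted at an unadjusted p of 0.05, where 10.9% of all genes were counted. Sct had 0.81 ± 0.43 and Chga 0.50 ± 0.27 (adjusted p = 0.5 and 0.499). Without the library labelled Cpa3Cre/+ naive replicate 1 the values were 0.58 ± 0.27 for Chgb (adjusted p = 0.855), 0.40 ± 0.45 for Sct and 0.37 ± 0.32 for Chga (adjusted p = 1 for both). Markers of the muscle wall lay lower in the same comparison. Of 8 smooth muscle genes 8 were lower in value, with a median of -1.14, and of 20 enteric neuron genes 20, with a median of -1.01, none of them called. Vip, a peptide of enteric neurons, had -1.25 ± 0.29 and Snap25, of vesicle fusion, -1.21 ± 0.32 (adjusted p = 0.377 for both). Without that library the medians were -0.62 for the muscle and -0.70 for the neuron genes, again with all 8 and all 20 lower in value, and Vip had -1.0 ± 0.32 and Snap25 -0.90 ± 0.35 (adjusted p = 0.48 and 0.74). The summed muscle markers ran from 809 to 6197 CPM in naive libraries (to 2737 CPM without it) and from 655 to 1577 CPM in immunized libraries, and the part of this in the hormone values was not tested.

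The rest of the hormone pathway was read from lists of genes. Of 20 transcription factors of the enteroendocrine lineage, 20 were tested and 0 were called in the genotype average, on day 5 or after immunization. Their median on day 5 was 0.06. Etv1 differed by 0.26 ± 0.29 and Neurod1 by -0.14 ± 0.18 between genotypes, and Sox4 by 0.38 ± 0.20 on day 5 (adjusted p = 1, 1 and 0.34). Of 24 genes of prohormone processing and the secretory granule, 0 were called between genotypes and 1 was called lower on day 5, against 1.38% of all genes called lower. Their median on day 5 was -0.08, against 0.02 over all genes. The gene called was Pcsk1n, which encodes proSAAS, an inhibitor of the convertase PCSK1. It had 0.0805 and 0.134 CPM in Cpa3+/+ and 0, 0 and 0.377 CPM in Cpa3Cre/+ day 5 libraries, all below the 0.829, 1.46, 3.35 and 2.52 CPM of the immunized ones. In the other states Pcsk1n ran from 0 to 5.95 CPM (naive), 0.457 to 2.79 CPM (day 1) and 0.349 to 7.22 CPM (day 3). The fitted log2 fold change of day 5 against immunized was -4.04 ± 0.99 (adjusted p = 0.045). It rests on few counts, was lost with the GC correction (-3.73, adjusted p = 0.117), and ranged in adjusted p from 0.011 to 0.159 as single libraries were left out. Ptprn2, a granule membrane protein, had -0.83 ± 0.24 (adjusted p = 0.0793).
Of 22 tested genes among 30 nutrient sensors, 1 was called lower on day 5, and their median was 0.02. Lpar5, a receptor for lysophosphatidic acid that is held to respond to protein digests in enteroendocrine cells, had 10.9 and 8.88 CPM in Cpa3+/+ and 13.8, 12.2 and 25.5 CPM in Cpa3Cre/+ day 5 libraries. The immunized libraries had 28.6, 30.7, 40.6 and 40.6 CPM, without overlap, and the log2 fold change was -1.36 ± 0.34 (adjusted p = 0.0469). In the other states Lpar5 ran from 8.19 to 33.3 CPM (naive), 9.2 to 29.2 CPM (day 1) and 15.2 to 23.9 CPM (day 3). Lpar5 thus had its highest median in the immunized state, at 35.7 CPM, against 23.8 CPM in naive mice and 25.3 and 19.1 CPM on days 1 and 3. Its exons hold 58.8% G and C, and the value was -0.88 with the GC correction (adjusted p = 0.313). Leaving out single libraries gave an adjusted p between 0.00754 and 0.197. Abcc8, a subunit of the glucose-sensing potassium channel, had -0.90 ± 0.27 (adjusted p = 0.0879).
Of 14 tested hormone receptors 0 were called in the 3 comparisons. Glp1r, the GLP-1 receptor, had -1.24 ± 0.40 (adjusted p = 0.115) and Sstr1, a somatostatin receptor, -1.20 ± 0.44 (adjusted p = 0.155) on day 5. The median of the receptors was 0.10 there. Between genotypes Cckar, a cholecystokinin receptor, had 1.02 ± 0.53 (adjusted p = 1). Of 12 genes that activate or break down the hormones 0 were called, and 9 were lower in value on day 5 with a median of -0.31. Among them Thop1, a peptidase that cleaves neurotensin, had -0.78 ± 0.28 (adjusted p = 0.144). Of 11 tested other products of these cells 0 were called. Tph1, the serotonin-synthesis enzyme of enterochromaffin and mast cells, was lower in value by 0.67 ± 0.23 in Cpa3Cre/+ (unadjusted p = 0.00905 and adjusted p = 1 in edgeR's test). Ppy had 0 counts in all 23 libraries, Gast had 3 counts over all of them and Insl5 6.

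The transcripts were also compared with each other over the 23 libraries, on log2(CPM + 0.5). The libraries differ in state, genotype and the cells sampled, which all pairs share. Of 45 pairs, 18 were positively and 2 negatively correlated at an adjusted p of 0.05 (permutation test of Pearson's r with 100000 draws, two-sided, Benjamini-Hochberg over 45 pairs). Rank correlation gave 16 pairs. Cck, Gip, Sst, Ghrl and Chga varied together, with r from 0.66 to 0.85 in their 10 pairs and rho from 0.58 to 0.84. Within Cpa3+/+ libraries r ran from 0.70 to 0.91 and within Cpa3Cre/+ libraries from 0.49 to 0.93, where Ghrl with Chga and Gip with Chga did not pass (adjusted p up to 0.27 in the permutation test). Each pair was also computed without its 2 farthest libraries. These are the 2 farthest from the median of whichever transcript of the pair is named earlier in the first paragraph. They can therefore differ between pairs, and they were chosen apart from those farthest out on the first principal component. Outlying values of the other transcript stay in. Without the 2 farthest libraries 9 of the 10 pairs passed, with r from 0.41 to 0.77, and Ghrl with Chga did not (r = 0.414, adjusted p = 0.14 in the permutation test).
The closest pair was Cck and Ghrl, with r = 0.854 and rho = 0.834 (adjusted p = 9e-05 in the permutation test). Its r was 0.770 without the 2 libraries farthest from the median of Cck, and 0.868 without the library labelled Cpa3Cre/+ naive replicate 1. Cck ranked 5 among 17235 other genes by correlation with Ghrl, the best rank within these 5 transcripts. By correlation with Cck, Ghrl ranked 23, Gip 71, Sst 72 and Chga 911. By correlation with Gip, Cck ranked 367, Ghrl 408, Sst 1082 and Chga 1630, so many other genes were closer. Sst and Chga had r = 0.842 and rho = 0.815, and Cck and Gip r = 0.829 and rho = 0.842 (adjusted p = 9e-05 for both r in the permutation test). Without the 2 farthest libraries r was 0.773 and 0.760. Sct joined these 5 more loosely, with r from 0.49 to 0.71.
Chgb followed Chga (r = 0.751, rho = 0.594, 0.608 without the 2 farthest libraries, adjusted p = 0.0003 in the permutation test) more than any hormone. The r of this pair was 0.780 within Cpa3+/+ libraries. Within Cpa3Cre/+ libraries it was 0.699 and did not pass (adjusted p = 0.065 in the permutation test).
Gcg ran against Gip (r = -0.494, rho = -0.496) and Cck (r = -0.491, rho = -0.456), each with an adjusted p of 0.038 in the permutation test. Without the 2 farthest libraries r was -0.291 and -0.331, and neither passed (adjusted p = 0.31 and 0.26 in the permutation test). By rank, Gip with Gcg passed and Cck with Gcg did not (adjusted p = 0.048 and 0.072 in the permutation test of rho). Within Cpa3+/+ and Cpa3Cre/+ libraries r was -0.483 and -0.505 for Gip and -0.634 and -0.252 for Cck, none of them passing. Nts and Pyy formed a pair of their own (r = 0.633, rho = 0.601, adjusted p = 0.0034 in the permutation test), with r = 0.527 without the 2 farthest libraries. Their r was 0.694 within Cpa3+/+ libraries. Within Cpa3Cre/+ libraries it was 0.507 and did not pass (adjusted p = 0.27 in the permutation test). Nts ran against Ghrl within Cpa3+/+ libraries (r = -0.702) and not within Cpa3Cre/+ libraries (r = -0.015). Whether these 2 values differ was not tested.

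**Figure D5:**
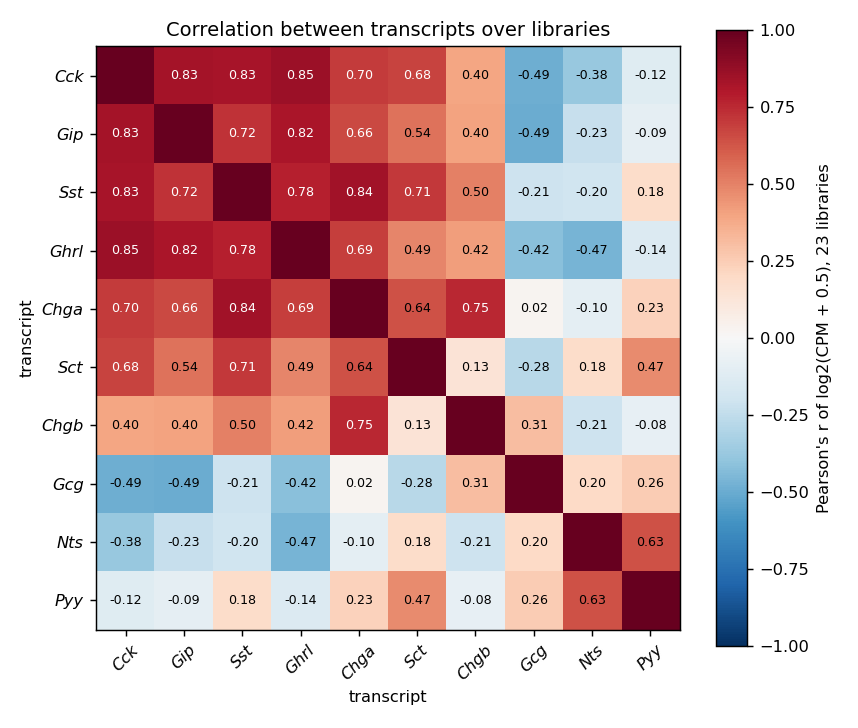
Pearson's r between transcripts over 23 libraries (colour and number), computed on log2(CPM + 0.5). Cck, Gip, Sst, Ghrl and Chga form a block with r of 0.66 or more, Nts pairs with Pyy at 0.63, and Gcg is negative with Cck and Gip.

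The genes most like each transcript were not hormones. By Pearson's r over the 23 libraries, the 3 nearest to Cck were Otop3 (0.917), Bin1 (0.905) and Paxx (0.897), and the 3 nearest to Ghrl were Bin1 (0.920), Slc19a1 (0.899) and Tmem189 (0.896). Gip was nearest to Nsfl1c (0.949), Psmd4 (0.941) and Prap1 (0.941). Sst was nearest to Macrod1 (0.905), Ccdc97 (0.898) and Stk11 (0.898), and Chga to Grk2 (0.915), Man2b1 (0.914) and Erf (0.895).
Gcg was nearest to Defa24 (0.831) and Lyz1 (0.815), which encode Paneth cell antimicrobial proteins, and to Kit (0.812), which marks interstitial cells of Cajal and mast cells. Nts was nearest to Naaladl1 (0.824), Papss1 (0.822) and Enpp7 (0.821), a brush border sphingomyelinase. Pyy was nearest to Osr2 (0.824), a marker of the distal small intestine, then to Krt8-ps (0.705) and Slc52a3 (0.695). Chgb was nearest to Lgmn (0.823), and Ctsh (0.763) was also among its nearest genes.
Sct stood closer to its nearest genes than any other member, with Cldn3 (0.976), Pias4 (0.973) and Gga1 (0.973). The exons of these 3 genes hold 62.7%, 60.8% and 62.2% G and C, more than 99%, 97.4% and 98.6% of the genes tested. For the 3 genes nearest to Sst these shares of genes were 99.1%, 92.3% and 95.2%. For Chga they were 86.2%, 74.4% and 95.6%, and for Cck 90.5%, 80% and 79.2%. For Gip they were 60.6%, 67.5% and 74.1%, and for Gcg 51.6%, 39.7% and 43.7%. For Ghrl they were 80%, 76.4% and 81.9%, for Nts 85.8%, 50.4% and 79.6%, and for Pyy 71.5%, 82.9% and 82.7%. Lgmn and Ctsh, named for Chgb, had 62% and 52.6%. The part of base composition in these correlations was not tested. As a description, the summed markers of the proximal small intestine had r = 0.676 with Gip and -0.644 with Gcg, and those of the distal small intestine r = 0.570 with Nts. The position along the jejunum at which each piece was taken was not among the labels used, and its part in these levels was not tested.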

How the data were processed

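RNA was sequenced from 23 jejunum samples after a stranded TruSeq preparation, per the labels' protocols. Per the submitters' processing notes, the authors aligned reads with STAR and assigned them to genes with featureCounts (Subread 1.5.1), builds mm10 and GRCm38. The deposited values are raw counts per Ensembl gene. The strand setting, STAR's version and the annotation are not given in the sources used here. Symbols and positions came from GENCODE on GRCm38 and promoter sequences from RefSeq.

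Low-count genes were removed with filterByExpr in edgeR 4.0.16 (R 4.3.3), which left 17236, and libraries were scaled with TMM factors, which also entered CPM. All 23 libraries entered 1 robust quasi-likelihood model of 10 group means and sex, with 12 residual degrees of freedom. Contrasts were genotype (5-state average and each state), access against immunized (average, each day and each genotype), immunized against naive, and the genotype difference of the access response. P-values are two-sided and adjusted over all genes. Standard errors were derived from the log2 fold change and the F statistic. No label says that a group's libraries are separate animals, so p-values measure only the spread between these samples, which may be technical. On simulated counts of 17236 genes, 54% of genes changed 2-fold and 97% changed 4-fold were recovered for day 5 against immunized, and 84% and 100% for the genotype average. The changed genes were drawn above a floor in mean CPM that Pyy and Pcsk1n did not reach, so these shares do not cover them. Apart from those changes the simulated libraries shared the same expected levels, without shifts in base composition or cells sampled. The members and gene lists were chosen with earlier results of these data known. From a context list, called genes are named (at most 4), and otherwise up to 2 with the smallest p. Per member the 3 best correlated genes are named, without predicted genes, antigen receptor segments and ribosomal pseudogenes. For Chgb 1 of the 3 is not reported here. Alternatives were DESeq2 1.42.0 and its size factors, no filter, no sex term, females only, a replicate block, naive and immunized as reference, single libraries left out and, chosen after seeing the data, a GC correction, leaving out the 2 libraries farthest out on the first principal component, and Spearman correlation.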

Additional observations from a re-analysis of the deposited data

How the results depend on the processing

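Over the alternatives other than leaving out single libraries, the genotype and access averages of the 10 transcripts passed in 0 of 170 refits and kept their direction in 145. Among the 25 that reversed, Cck in the access average was 0.10 with naive and immunized mice as reference, 0.014 with the GC correction and 0.041 without the 2 libraries farthest out on the first principal component (the library labelled Cpa3Cre/+ naive replicate 1 and Cpa3+/+ day 5 replicate 1). Chga was -0.00049 with DESeq2. Chgb was 0.018 with the replicate block, 0.23 with naive and immunized as reference and 0.030 without those 2 libraries. Nts was -0.0057 with DESeq2 size factors, -0.0048 with DESeq2, -0.0084 without the sex term, -0.10 with the block, -0.012 with the GC correction and -0.24 without the 2 libraries. Sst was 0.12 with the combined reference and 0.022 without the 2 libraries. In the genotype average Nts was 0.11 without the 2 libraries, and Sct -0.21 in females and -0.076 with the GC correction. Sst there was -0.0086 with DESeq2 size factors, -0.012 without the filter, -0.0080 with DESeq2, -0.015 without the 2 libraries, -0.059 without the sex term, -0.057 with the GC correction and -0.17 in females.

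Leaving out each library in turn, the access average ran from -0.17 to 0.18 for Cck, 0.01 to 0.35 for Gip, 0.01 to 0.16 for Gcg, -0.83 to -0.57 for Sct, -0.24 to 0.055 for Sst, -0.33 to 0.34 for Nts, -0.043 to 0.24 for Ghrl, -0.58 to 0.19 for Pyy, -0.097 to 0.078 for Chga and -0.12 to 0.080 for Chgb. The genotype average ran from -0.0041 to 0.29 for Cck, -0.15 to 0.17 for Gip, -0.39 to -0.14 for Gcg, -0.24 to 0.30 for Sct, -0.14 to 0.19 for Sst, -0.97 to 0.063 for Nts, -0.048 to 0.38 for Ghrl, -0.68 to -0.058 for Pyy, -0.22 to 0.087 for Chga and -0.19 to -0.0030 for Chgb. Sct on day 5 ran from -2.27 to -1.48, Pcsk1n from -5.87 to -3.73 and Lpar5 from -1.57 to -1.25. The count of transcripts called was 0 in all of these fits in every comparison other than day 5, where it was 0 to 1 (Sct).

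Without the filter on low counts 1 transcript was called on day 5 (Sct), in immunized against naive (Sct), and in the access average of Cpa3+/+, the difference of the access response and the immunized genotype comparison (Nts in all 3). Sct was the 1 transcript called on day 5 by DESeq2 and without the sex term. With the replicate block Sct on day 5 was -1.87 (adjusted p = 0.0764), Pcsk1n -3.70 (adjusted p = 0.0895) and 0 transcripts were called in any comparison. Replicate numbers showed no general pairing of the libraries, and the labels do not say whether they pair. Same-numbered libraries of different groups correlated with a median of -0.0158 over 93 pairs (highest 0.601, with 19 over 0.1). Of 23 libraries, 9 correlated best with their own number. Lpar5 was lost in females (-1.43, adjusted p = 0.0727), and Pcsk1n (-4.00, adjusted p = 0.128) and Lpar5 (-1.54, adjusted p = 0.0612) without the 2 libraries farthest out. Within the 11 Cpa3Cre/+ libraries 11 pairs of transcripts were correlated, against 20 in all 23 libraries. With fewer libraries a correlation of the same size is less likely to pass, so these counts do not compare the genotypes.

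The count over all genes moved more. On day 5 it was 334, and it was 906 without the filter, 954 with DESeq2 (409 higher and 545 lower), 82 in females (1 and 81), 149 with the block, 41 with the GC correction and 136 without the 2 libraries. Single libraries left out gave 28 (without Cpa3+/+ immunized replicate 2) to 1305 (without Cpa3Cre/+ day 5 replicate 3), and 14 of the 23 moved it by over 1.5 times. Without the filter it was 288 in the access average (146 in Cpa3+/+ and 162 in Cpa3Cre/+), 124 on day 1, 284 on day 3, 53 in the difference of the access response, 49 in the genotype average, 578 in immunized against naive, and 166, 77, 233, 49 and 466 between genotypes without access (naive, then immunized) and after 1, 3 and 5 days of it. DESeq2 called 58 in the access average (2 in Cpa3+/+ and 6 in Cpa3Cre/+), 17 on day 3, 32 in immunized against naive, and 2, 5 and 10 between genotypes on days 1, 3 and 5. In females it was 0 in the access average, 0 in that of Cpa3Cre/+, 0 in the genotype average, 3 between genotypes on day 5 and 979 in immunized against naive. With the block it was 0 in the access average of Cpa3Cre/+, 0 in the genotype average and 2 in immunized against naive. The GC correction gave 1 in the access average, 1 in that of Cpa3+/+ and 3 in that of Cpa3Cre/+. Without the 2 libraries it was 10 in the access average, 2 in that of Cpa3Cre/+, 2 on day 3, 4 between genotypes on day 5, 1 in naive mice and 3 in immunized against naive. DESeq2 size factors gave 2 in the access average of Cpa3Cre/+, as did the fit without the sex term. Single libraries left out gave 0 to 13 in the access average, 0 to 2 in that of Cpa3+/+, 0 to 6 in that of Cpa3Cre/+, 0 to 7 in the genotype average, 0 to 5 and 0 to 2 between genotypes in naive and day 5 mice, and 0 to 627 in immunized against naive. The cause of these shifts was not tested.

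In 7 of 10 groups there were 2 libraries, which limits every comparison within a state. Depth limits Pyy most, with 7 to 50 counts per library.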
